A study of Homo sapiens with 48 samples.

Results

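The genes described here are 10 members of the regulator of G protein signalling (RGS) family in 2 human neuroblastoma cell lines: RGS2, RGS3, RGS4, RGS5, RGS7, RGS10, RGS12, RGS16, RGS17 and RGS19. They were selected on gene name from the 19923 protein-coding gene names of the count files, and all 10 passed the filter on low counts in both lines. RGS4 leads the set and was chosen by a measured value of these same data: its mRNA fell further after transcription was blocked in cells treated with STM2457 than in control cells. That observation used the 0 h and 6 h libraries. RGS4 is therefore described with no test wherever those libraries enter a comparison, and it is tested only in the 3 h libraries. The counts of members that differ between the lines include it. The difference in decay itself is given with no test for every member.

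The libraries were made from poly(A) RNA of 2 MYCN-amplified lines of WT genotype, Kelly and NGP. Cells had received 8 µM STM2457, which inhibits METTL3, the enzyme that places m6A on mRNA, or the solvent DMSO, for 3 or 6 days. They then received 10 µg/ml actinomycin D, which blocks transcription, for 0, 3 or 6 h. The 48 libraries form 24 groups of 2. The labels do not say whether the 2 libraries of a group are separate cultures, so p-values measure only the spread between libraries, which may be technical. The libraries held 11139550 to 21942238 fragments in genes. Of the 10 adrenergic neuroblastoma markers looked at, all were found in Kelly at a median of at least 86.8 CPM in DMSO at 0 h, and in NGP all but TH (median 0.304 CPM) reached at least 110 CPM. Of the markers of other cell types, CD3E was at 0 in all 8 of these libraries and PTPRC, DCN and CDH5 were at 0 in all 4 of NGP. Of 5 mesenchymal markers, 4 had higher medians in NGP: COL1A1 had 20.2 CPM in Kelly and 71.8 CPM in NGP, COL3A1 0.462 and 19.0 CPM, PRRX1 0.398 and 6.44 CPM, and LUM 0.163 and 2.38 CPM. The macrophage marker CD68 had 5.43 and 4.53 CPM and the Schwann cell marker SOX10 1.17 and 1.70 CPM. The part of these markers in the differences between the lines was not tested. CPM is the usual count-per-million scale over TMM-scaled library sizes, a scaling that sets the typical gene to no change.

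RGS proteins speed the hydrolysis of GTP by G protein alpha subunits and so end the signal of G protein-coupled receptors. RGS2, RGS3, RGS4, RGS5 and RGS16 belong to the R4 subfamily, RGS7 to R7, RGS10 and RGS12 to R12, and RGS17 and RGS19 to RZ. The RGS4, RGS5 and RGS16 proteins carry an amino-terminal cysteine whose oxidation by ADO and arginylation by ATE1 mark them for ubiquitin ligases of the UBR family, the Arg/N-degron pathway. METTL3 places m6A mostly within a short sequence context of which GGACT is the best-known core, and m6A can change how long an mRNA lasts. Copies of ATTTA in a 3′ UTR, and of the longer form TATTTAT, are typical of AU-rich elements in short-lived mRNAs.

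RGS4 and RGS16 are shown by sequence because both were lost after actinomycin D and they differ in the motifs they hold. The canonical mRNA of each member (GENCODE 44, GRCh38; all 10 matched) was searched on its own strand. The RGS4 mRNA, of 2984 bases, held 0 copies of GGACT, a motif that 87.9% of the 19701 canonical mRNAs held at least once. Its 3′ UTR held ATTTA at 1.34 per kb, against a median of 1.52 per kb over 19229 3′ UTRs, of which 31.7% held TATTTAT at least once. The RGS4 3′ UTR held 2 copies of TATTTAT, a number that 13.5% of 3′ UTRs reach. They stand at chr1:163075760-163075784 and chr1:163076041-163076065 on the plus strand, with the motif in capitals in these 25-base windows.
RGS4 copy nearer the stop codon: atatgcctaTATTTATaaaccagca
RGS4 copy nearer the poly(A) end: catttatgtTATTTATgatgttatt
The RGS16 mRNA, of 2408 bases, held 3 copies of GGACT, 1 in the coding sequence (chr1:182600392-182600416) and 2 in the 3′ UTR (chr1:182600090-182600114 and chr1:182599120-182599144, all on the minus strand).
RGS16 coding copy: tgatggagaaGGACTcctacccacg
RGS16 nearer 3′ UTR copy: agatactgtgGGACTcatgctggag
RGS16 farther 3′ UTR copy: tcgaagggcaGGACTggggataatc
The RGS16 3′ UTR also held ATTTA at 3.00 per kb and 4 copies of TATTTAT, a number that 3.16% of 3′ UTRs reach. The last pair of these overlap, as the window at chr1:182598725-182598749 shows, with the upstream copy in capitals.
RGS16 overlapping TATTTAT copies: ctgtttaaaTATTTATttattgtga
Among the other members, GGACT was densest in RGS12 (2.31 per kb) and RGS10 (2.17 per kb), against a median of 0.923 per kb over all canonical mRNAs. RGS5 held 4 copies of GGACT in 5670 bases and 1 copy of TATTTAT, and RGS17, with a 3′ UTR of 7115 bases, held 10 copies of TATTTAT. Per kb of 3′ UTR, ATTTA came to 5.06 in RGS17, 4.25 in RGS7, 3.82 in RGS3 and 3.57 in RGS5. It came to 2.98 in RGS19, 2.95 in RGS2 and 0 in RGS10 and RGS12. It was thus denser in RGS5, which gained on the typical gene after actinomycin D, than in RGS16. A match is a run of letters and not a measured m6A site or binding site, and the absence of GGACT from RGS4 says only that these letters are not in this mRNA.

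RGS5 and RGS4 made up most of the RGS mRNA in both lines, the larger share of it RGS5. Levels between genes are given per exon length as TPM, transcripts scaled to a common library total, in the DMSO libraries at 0 h, of which each line had 2 at 3 days and 2 at 6 days. The length takes in all annotated exons of a gene, and a greater length lowers its TPM. It was 13793 bases for RGS3 and 13755 for RGS12, whose canonical mRNAs have 4122 and 4753 bases. The order of the members, and the places of RGS3 and RGS12 above all, depend on this choice. RGS5, which is also widely used as a marker of pericytes, stood at 3572 ± 171 TPM (SD, n = 4) in Kelly and 673 ± 82.6 TPM (SD, n = 4) in NGP. RGS4, a regulator abundant in neurons, stood at 825 ± 114 TPM (SD, n = 4) in Kelly and 96.2 ± 49.8 TPM (SD, n = 4) in NGP. These means are over both durations, and in NGP the durations stood apart: RGS4 read 147 and 130 TPM at 3 days and 54.0 and 53.1 TPM at 6 days, and its SD spans that gap. Over both durations together RGS5 and RGS4 held 93.2% of the summed TPM of the 21 RGS genes in the files in Kelly and 81.3% in NGP. The pericyte and smooth muscle markers ACTA2 and MYH11 had medians of 3.02 and 6.30 CPM in Kelly and 2.80 and 4.43 CPM in NGP, and PDGFRB had 60.9 and 66.0 CPM. Their part in the RGS5 level was not tested.

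In Kelly the order below RGS5 and RGS4 differed little between the durations. At 3 days it was RGS16 (mean 97.3 TPM), RGS10 (80.4), RGS2 (48.7), RGS19 (37.5), RGS7 (23.8), RGS12 (8.53), RGS3 (6.99) and RGS17 (6.85). At 6 days it was RGS10 (97.7 TPM), RGS16 (56.9), RGS2 (54.6), RGS19 (28.6), RGS7 (21.8), RGS12 (11.3), RGS17 (7.92) and RGS3 (7.05). The 2 libraries of neighbours in these orders overlapped only between RGS3 and RGS17, at both durations. In NGP the order depended more on the duration. At 3 days it was RGS2 (53.8 TPM), RGS10 (26.7), RGS7 (19.5), RGS12 (12.4), RGS16 (10.9), RGS19 (8.44), RGS3 (6.71) and RGS17 (5.55), and each neighbour from RGS12 down overlapped the next. At 6 days RGS10 (56.4 TPM; 39.98 and 72.7 TPM) and RGS4 (53.6 TPM) overlapped behind RGS5, followed by RGS16 (42.2), RGS2 (36.9), RGS7 (24.6), RGS3 (11.3), RGS12 (8.11), RGS19 (7.24) and RGS17 (6.57). RGS16 and RGS2, RGS12 and RGS19, and RGS19 and RGS17 were the other neighbours that overlapped there, and those that overlapped did not differ beyond their spread. In bulk libraries such as these, fewer cells expressing a gene and less RNA per cell cannot be told apart.

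**Figure D1:**
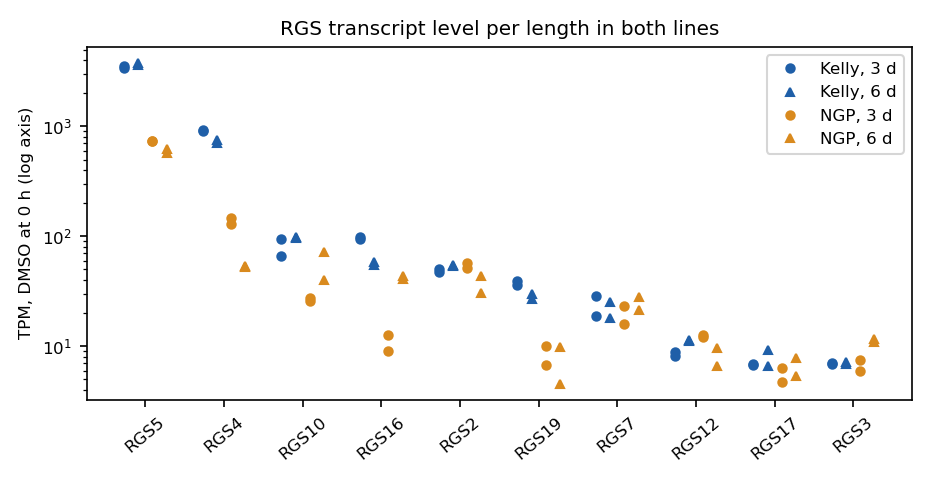
Level of each member in TPM (vertical log axis) in DMSO at 0 h of actinomycin D, in Kelly and NGP. Points are single libraries, circles at 3 days and triangles at 6 days; RGS5 and RGS4 stand above all others in Kelly and in 3-day NGP cells, and in 6-day NGP cells RGS5 alone stands clear.

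NGP held less RGS4, RGS5, RGS10 and RGS19 mRNA than Kelly at both durations. Of the 10 members, 5 were called at 3 days and 4 at 6 days, all lower in NGP (edgeR quasi-likelihood test, Benjamini-Hochberg adjusted p under 0.05), beside 30% and 31.6% of all 17343 genes tested. RGS4 is in both counts, although its DMSO libraries at 0 h also entered the value that chose it. In DMSO at 0 h, RGS4 read 1109 and 1121 CPM in 3-day Kelly cells against 167 and 151 CPM in NGP, and 898 and 850 CPM against 65.3 and 64.4 CPM at 6 days. The lines did not overlap, and the log2 difference, given with no test, was -2.81 ± 0.10 (SE) at 3 days and -3.75 ± 0.10 at 6 days. The log2 difference of RGS5 was -2.29 ± 0.06 and -2.61 ± 0.06. RGS19, a regulator of Gi and Gz signalling, differed by -2.22 ± 0.46 and -1.98 ± 0.45, and RGS10 by -1.67 ± 0.26 and -0.79 ± 0.25. The call of RGS10 at 6 days was lost without replicate 1 of the NGP DMSO 0 h libraries (-0.42, edgeR adjusted p = 0.37). RGS16, an R4 member induced by many signals, was lower in 3-day NGP cells (-3.24 ± 0.50) but its value at 6 days was -0.42 ± 0.45, which did not pass. In NGP DMSO it read 5.08 and 7.35 CPM at 3 days and 24.7 and 26.1 CPM at 6 days, while in Kelly it read 59.96 and 57.4 CPM and then 32.9 and 35.2 CPM. The lines thus stood far apart in RGS16 at 3 days and close together at 6 days. RGS2, RGS3, RGS7, RGS12 and RGS17 did not pass at either duration, with log2 differences between -0.55 and 0.69.

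RGS4 mRNA was lower under STM2457 in Kelly and was not lower in NGP before actinomycin D. In 3-day Kelly cells the 2 STM2457 libraries read 785 and 803 CPM against 1109 and 1121 CPM in DMSO, a log2 difference of -0.50 ± 0.07 (SE), and the groups were far apart. In 6-day Kelly cells they read 740 and 752 CPM against 898 and 850 CPM, a difference of -0.21 ± 0.07. In NGP the STM2457 libraries read 169 and 167 CPM at 3 days (DMSO 167 and 151 CPM) and 76.7 and 83.1 CPM at 6 days (DMSO 65.3 and 64.4 CPM), with differences of 0.07 ± 0.13 and 0.30 ± 0.13. Under scaling to the ERCC spike-ins, synthetic RNAs counted beside the cells' own, the Kelly differences were -0.10 and -0.46, with the median of all genes at 0.38 and -0.21.

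At 3 h of actinomycin D, in libraries other than those behind the choice of RGS4, its mRNA was lower under STM2457 in Kelly. The STM2457 libraries read 316 and 352 CPM against 538 and 546 CPM in DMSO at 3 days, a log2 difference of -0.71 ± 0.07 (edgeR adjusted p = 8.4e-17), or -0.29 with ERCC scaling (edgeR adjusted p = 0.00047). At 6 days they read 403 and 424 CPM against 511 and 471 CPM, a smaller difference of -0.24 ± 0.07 (edgeR adjusted p = 0.016). The second call was lost without replicate 1 of the DMSO libraries (-0.19, edgeR adjusted p = 0.34) or of the STM2457 libraries (-0.21, adjusted p = 0.24), and under ERCC scaling (-0.05, adjusted p = 0.75). In NGP the values were 114 and 117 CPM against 102 and 101 CPM at 3 days and 54.1 and 49.9 CPM against 59.1 and 59.6 CPM at 6 days. Neither NGP difference passed (0.19 ± 0.13 and -0.18 ± 0.13, edgeR adjusted p = 0.45 and 0.51). The lower 3 h level in Kelly followed a lower level at 0 h: set against each treatment's own 0 h value, the 3 h difference was -0.22 ± 0.10 at 3 days and -0.04 ± 0.10 at 6 days in Kelly, and 0.12 ± 0.18 and -0.48 ± 0.18 in NGP. With ERCC scaling the Kelly value at 6 days turned to 0.41 and the NGP value at 3 days to -0.054.

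**Figure D2:**
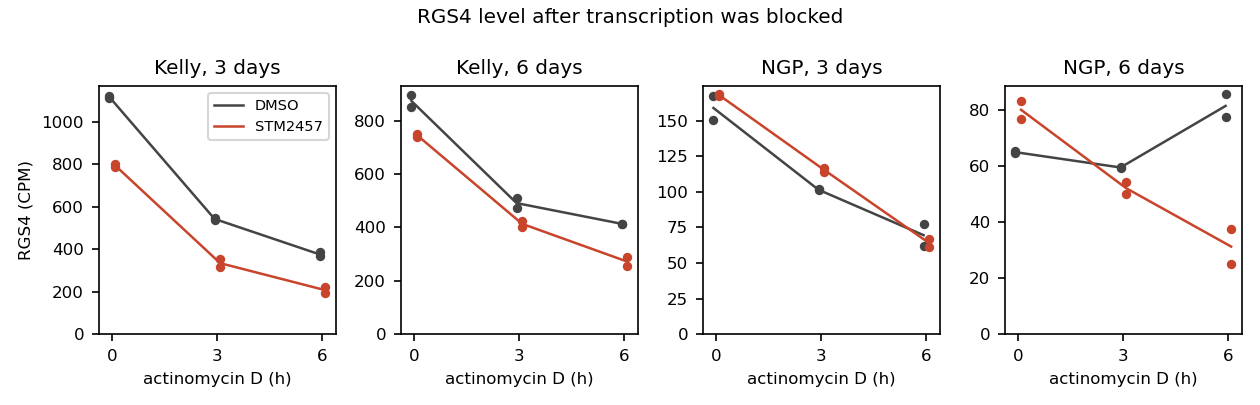
RGS4 in CPM (vertical axis, its own scale in each panel) at 0, 3 and 6 h of actinomycin D, for DMSO and STM2457 in each line and duration. Points are the 2 libraries of a group and lines join their means. Both curves fall in Kelly, where the STM2457 curve lies lower throughout, and in 3-day NGP cells. In 6-day NGP cells the DMSO curve ends at 85.4 and 77.2 CPM while the STM2457 curve ends at 37.4 and 24.9 CPM.

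After 6 h of actinomycin D, RGS4 had fallen relative to the typical gene in 7 of the 8 courses. With ERCC scaling, which refers to the spike-ins and not to the typical gene, its level was lower at 6 h in all 8. In 3-day Kelly cells 33.6% of the 0 h CPM was left in DMSO (366 and 384 CPM) and 26.0% under STM2457 (193 and 220 CPM). In 6-day Kelly cells 47.3% was left in DMSO (413 and 415 CPM) and 36.5% under STM2457 (288 and 256 CPM). In 3-day NGP cells the shares were 43.7% (61.8 and 77.3 CPM) and 38.0% (61.0 and 67.0 CPM), and the libraries overlapped. The exception was NGP DMSO at 6 days, where both libraries lay above their 0 h level (85.4 and 77.2 CPM, 125%), while 39.0% was left under STM2457 (37.4 and 24.9 CPM). That rise is relative to the typical gene: with ERCC scaling 58.8% was left in this group, a log2 change of -0.76 in place of 0.29. The median of all genes moved by -1.10 there, so RGS4 fell less than the median gene under that scaling as well. MYCN, a short-lived mRNA, fell in that same DMSO group from 6678 and 8769 CPM to 860 and 916 CPM.

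The decay difference of RGS4, the change over 6 h under STM2457 minus that in DMSO on the log2 scale, was -0.37 ± 0.10 (SE) for 3-day and -0.38 ± 0.10 for 6-day Kelly cells, and -0.22 ± 0.18 for 3-day and -1.67 ± 0.19 for 6-day NGP cells. These are the values that put RGS4 in the set. They stood at percentile 20.4, 22.7, 27.8 and 6.2 among all genes tested, where a low percentile means a larger loss under STM2457. The large NGP value at 6 days came with the DMSO libraries in which RGS4 did not fall relative to the typical gene, and STM2457 cells there lost RGS4 to about the same share as at 3 days. Scaling to the ERCC spike-ins turned the Kelly value at 6 days to 0.32, where the median of all genes stood at 0.70. That scaling shifts all genes of a comparison by about the same amount. The place of RGS4 below the median gene thus only restates the value that chose it. Under that scaling the shares left at 6 h were 19.4% in DMSO and 24.3% under STM2457 in 6-day Kelly cells, 25.0% and 14.6% in 3-day Kelly cells, 24.8% and 23.6% in 3-day NGP cells, and 58.8% and 24.7% in 6-day NGP cells.

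The other members showed no common direction in the decay difference. RGS5 had values of -0.11 ± 0.05, 0.02 ± 0.05, -0.28 ± 0.07 and -0.62 ± 0.07 in the same order. RGS16 had 0.60 ± 0.54, -0.73 ± 0.55, -0.44 ± 0.83 and 3.68 ± 0.91. The last of these rests on DMSO libraries that held 8 and 0 RGS16 fragments at 6 h. RGS2 was negative in all 4 (-0.76 ± 0.60, -0.42 ± 0.57, -0.34 ± 0.52 and -0.27 ± 0.53) and RGS3 positive in all 4 (0.25 ± 0.47, 0.12 ± 0.47, 0.66 ± 0.49 and 0.20 ± 0.48), each within 2 SE of 0. These directions held with TMM scaling only: with ERCC scaling RGS2 was 0.29 in 6-day Kelly cells and 0.16 in 6-day NGP cells, and RGS3 was -0.16 in 3-day Kelly cells. The values of RGS7, RGS10, RGS12, RGS17 and RGS19 ran from -1.04 ± 0.83 (RGS19, 3-day NGP cells) to 0.99 ± 0.42 (RGS10, 6-day NGP cells), and with TMM scaling each of these genes had both signs among its 4 values.

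In control cells the members ranged from RGS16, which lost most, to RGS5, which gained on the typical gene. Without RGS4, 5 of 9 members in 3-day Kelly cells, 4 at 6 days, 5 in 3-day NGP cells and 4 at 6 days changed between 0 and 6 h of actinomycin D in DMSO (edgeR), beside 30.1%, 26.5%, 37.3% and 36.7% of all genes. In each comparison RGS5 was the only called member that rose, a direction that depends on the scaling, and the others fell. Under STM2457 the counts were 6, 4, 5 and 4 of 9, beside 26.9%, 26.4%, 32.5% and 32.1%. Scaling to the ERCC spike-ins, under which the median gene of these DMSO comparisons moved by -0.34, -1.18, -0.81 and -1.10, gave DMSO counts of 5, 9, 6 and 9, with most members then lower at 6 h, as the median gene was.

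RGS16 had the largest loss over 6 h in 7 of the 8 courses, and RGS2 had it in 3-day Kelly cells under STM2457 (-4.35 ± 0.46). In Kelly DMSO it fell from 59.96 and 57.4 CPM at 0 h to 6.86 and 5.12 CPM at 3 h and 3.36 and 1.23 CPM at 6 h at 3 days, a log2 change of -4.67 ± 0.41 (edgeR adjusted p = 1.2e-21). 6-day Kelly cells gave -3.97 ± 0.40 and 3-day NGP cells -2.80 ± 0.60. In 6-day NGP cells it fell from 24.7 and 26.1 CPM to 0.403 and 0 CPM (8 and 0 fragments, where a count of 0 allows up to 0.204 CPM), and the fitted change of -6.78 ± 0.72 rests on those few fragments. Under STM2457 the changes were -4.07 ± 0.40, -4.70 ± 0.42, -3.24 ± 0.60 and -3.10 ± 0.60. By 3 h between 5.32% and 33.02% of the 0 h level was left over the 8 groups.

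RGS2, an R4 member that acts mainly on Gq, and RGS3 were also lost in all 8 comparisons (edgeR). RGS2 changed by -3.58 ± 0.44 and -2.99 ± 0.42 in Kelly DMSO and by -2.07 ± 0.37 and -1.94 ± 0.37 in NGP DMSO. In 3-day Kelly cells it went from 26.5 and 24.5 CPM to 2.87 and 1.36 CPM. RGS3 changed by -1.51 ± 0.34 and -1.33 ± 0.34 in Kelly DMSO and by -2.56 ± 0.36 and -2.56 ± 0.35 in NGP DMSO. The Kelly value at 6 days lost its call without replicate 1 of the 6 h libraries (-0.98, edgeR adjusted p = 0.082), and the same value under STM2457 (-1.21 ± 0.34) without replicate 2 of its 6 h libraries (-0.96, adjusted p = 0.084).

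RGS5 gained on the typical gene while transcription was blocked. In Kelly DMSO at 3 days it read 5844 and 5569 CPM at 0 h, 7708 and 7854 CPM at 3 h and 9829 and 9916 CPM at 6 h. In NGP DMSO at 6 days it read 1040 and 960 CPM, then 1461 and 1432 CPM, then 2626 and 2294 CPM. The log2 change over 6 h in DMSO was 0.80 ± 0.03 and 0.73 ± 0.03 in Kelly and 0.90 ± 0.05 and 1.26 ± 0.05 in NGP, and under STM2457 it was 0.68 ± 0.03, 0.75 ± 0.03, 0.63 ± 0.05 and 0.64 ± 0.05. These rises are relative to the other mRNAs: with ERCC scaling the DMSO changes were 0.36, -0.55, 0.10 and 0.21, the STM2457 changes -0.16, 0.18, -0.03 and 0.01, and between 68.2% and 128% of the 0 h level was left at 6 h. RGS4 and RGS5 are neighbours on chromosome 1 and point toward each other. RGS4 lies at chr1:163068775-163076802 on the plus strand and RGS5 at chr1:163111121-163321791 on the minus strand, with 34318 bases between them (GENCODE, GRCh38). Neither shares an exon base with another of the protein-coding genes counted, and genes of other types were not looked at. RGS16 (chr1:182598623-182604389), RGS2 (chr1:192809039-192812275) and RGS7 (chr1:240775515-241357230) lie further along the same chromosome.

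**Figure D3:**
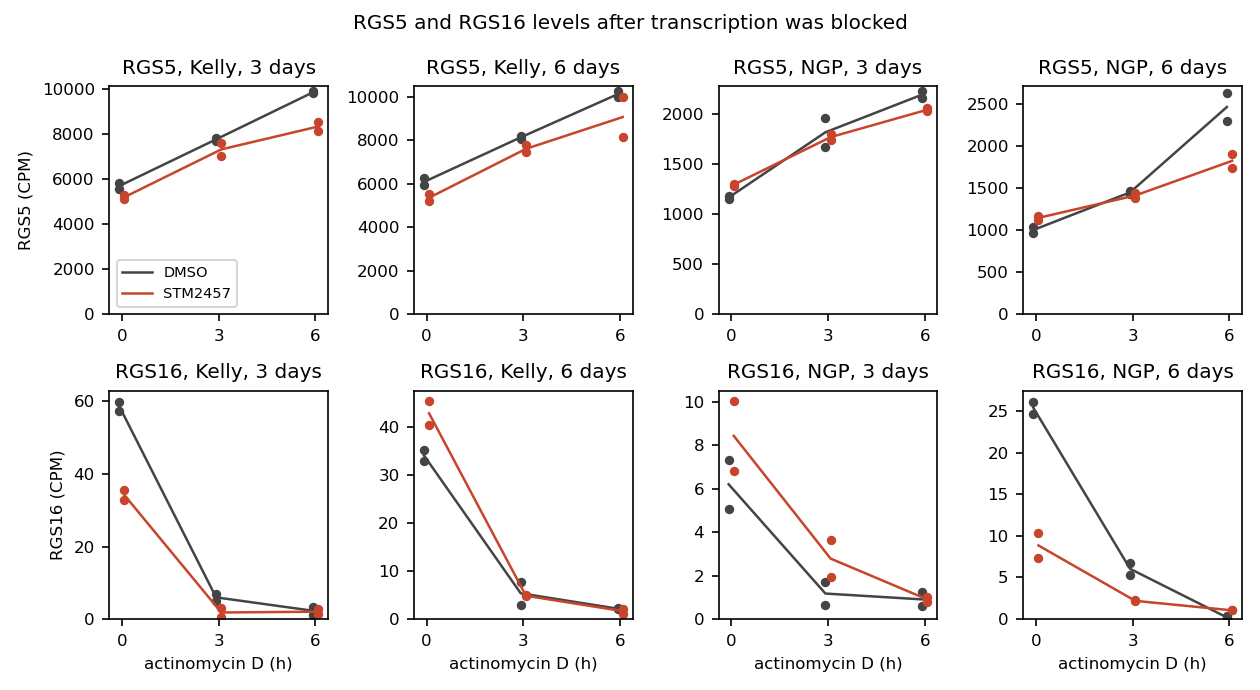
RGS5 (upper row) and RGS16 (lower row) in CPM (vertical axes from 0, each panel on its own scale) at 0, 3 and 6 h of actinomycin D. Points are the 2 libraries of a group and lines join their means; RGS5 climbs relative to the library in all 8 courses while RGS16 has lost most of its 0 h level by 3 h.

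The remaining members stayed nearer the typical gene. RGS19 fell in 3-day Kelly cells in DMSO (-1.49 ± 0.35, from 18.4 and 19.7 CPM to 5.25 and 8.25 CPM) and gave -0.31 ± 0.34 at 6 days, which did not pass. Its STM2457 value in 3-day Kelly cells (-0.86 ± 0.34, edgeR adjusted p = 0.046) lost its call without replicate 2 of the 0 h libraries (-0.54, adjusted p = 0.44) or of the 6 h libraries (-0.61, adjusted p = 0.34). RGS10, a small R12 member, rose in 3-day Kelly cells under STM2457 (0.71 ± 0.21, edgeR adjusted p = 0.0056), with -0.13 under ERCC scaling. RGS12, a large multidomain member, fell in 3-day NGP DMSO cells (-0.64 ± 0.22), a call lost without replicate 2 of the 0 h (adjusted p = 0.076) or 6 h libraries (adjusted p = 0.051). RGS17 fell in NGP under STM2457 at 3 days (-0.91 ± 0.36, edgeR adjusted p = 0.045), a call lost without any 1 of the 4 libraries (adjusted p from 0.085 to 0.19). RGS7, which works as a dimer with GNB5, passed in none of the 8 comparisons by edgeR, with values between -0.72 and 0.10; 1 of its unadjusted p-values was under 0.05.

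**Figure D4:**
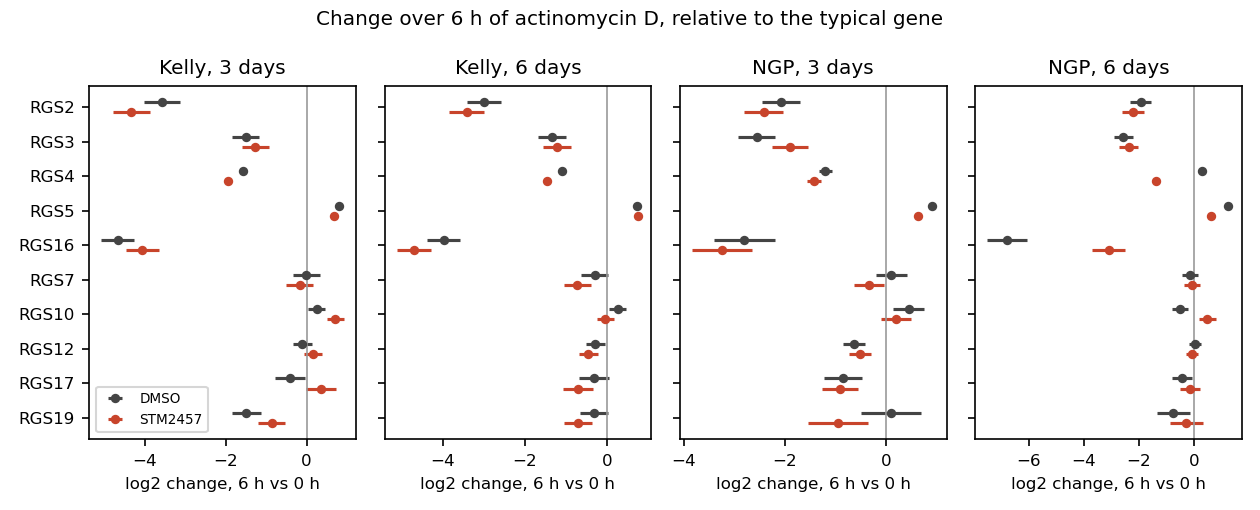
Log2 change of each member between 0 and 6 h of actinomycin D (horizontal axis, scale differing between panels), in DMSO and STM2457. Points are edgeR estimates and bars are 1 SE; RGS16 lies farthest to the left except in 3-day Kelly cells under STM2457, RGS5 lies to the right of 0 throughout, and RGS4 in 6-day NGP cells to the right of 0 in DMSO only. All values are with TMM scaling; with ERCC scaling that RGS4 value is -0.76 and RGS5 lies on both sides of 0.

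Before actinomycin D, few of the members tested differed between STM2457 and DMSO, with RGS4 left untested here. Of the other 9, 1 was called in 3-day Kelly cells, 1 in 6-day Kelly cells, 0 in 3-day NGP cells and 1 in 6-day NGP cells (edgeR), beside 1.69%, 3.97%, 3.7% and 7.99% of all genes. The called member was RGS5 each time. For the count of 0, DESeq2 and limma-voom also gave 0, and 2 members passed at an unadjusted p under 0.05. RGS5 read 5138 and 5286 CPM under STM2457 against 5844 and 5569 CPM in 3-day Kelly cells, and 5192 and 5534 CPM against 5925 and 6253 CPM at 6 days. In NGP it read 1285 and 1301 CPM against 1153 and 1175 CPM at 3 days, and 1171 and 1117 CPM against 1040 and 960 CPM at 6 days. Thus all STM2457 libraries lay below the DMSO libraries in Kelly and above them in NGP.

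The differences of RGS5 were small: -0.14 ± 0.03 and -0.16 ± 0.03 in Kelly (edgeR adjusted p = 0.0085 and 0.00037), and 0.14 ± 0.05 and 0.20 ± 0.05 in NGP (edgeR adjusted p = 0.098 and 0.0038). With ERCC scaling the Kelly value at 3 days turned to 0.26 and the others were -0.42, 0.24 and 0.15. DESeq2 called neither Kelly value (adjusted p = 0.37 and 0.13), nor did limma-voom (adjusted p = 0.72 and 0.25). Each of the 3 edgeR calls was also lost without 1 library. The libraries were replicate 1 of DMSO (adjusted p = 0.38) or of STM2457 (adjusted p = 0.32) in 3-day Kelly cells. They were replicate 2 of DMSO (adjusted p = 0.0996) or replicate 1 of STM2457 (adjusted p = 0.063) in 6-day Kelly cells, and replicate 2 of DMSO (adjusted p = 0.17) or replicate 1 of STM2457 (adjusted p = 0.12) in 6-day NGP cells. RGS16 had larger estimates, -0.79 ± 0.34 in 3-day Kelly cells and -1.52 ± 0.52 in 6-day NGP cells, which did not pass in edgeR (adjusted p = 0.39 and 0.058). DESeq2 and limma-voom called the second (adjusted p = 0.011 and 0.00012). There STM2457 read 7.29 and 10.4 CPM against 24.7 and 26.1 CPM in DMSO.

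At 3 h of actinomycin D, 3 of 10 members differed between STM2457 and DMSO in 3-day Kelly cells, 1 in 6-day Kelly cells, 1 in 3-day NGP cells and 0 in 6-day NGP cells (edgeR), beside 5.83%, 5.2%, 7.94% and 8.64% of all genes. RGS4 was the called member in 6-day Kelly cells and 1 of the 3 at 3 days. RGS16 was lower at 3 days in Kelly, at 0.619 and 3.02 CPM against 6.86 and 5.12 CPM (-1.75 ± 0.40, edgeR adjusted p = 0.0011). Without STM2457 replicate 1 it did not pass (edgeR adjusted p = 0.29), and DESeq2 and limma-voom gave adjusted p = 0.061 and 0.10. RGS10 was higher at 3 days in both lines, by 0.65 ± 0.21 in Kelly (37.0 and 44.7 CPM against 29.1 and 22.4 CPM, edgeR adjusted p = 0.047) and by 0.96 ± 0.30 in NGP (18.0 and 15.6 CPM against 9.43 and 7.86 CPM, adjusted p = 0.033). Both RGS10 calls were lost without any 1 of their 4 libraries (adjusted p from 0.060 to 0.42 in Kelly and from 0.067 to 0.25 in NGP), although the groups did not overlap. For the count of 0 in 6-day NGP cells, 1 member had an unadjusted p under 0.05, DESeq2 gave 1 (RGS16) and limma-voom 0.

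**Figure D5:**
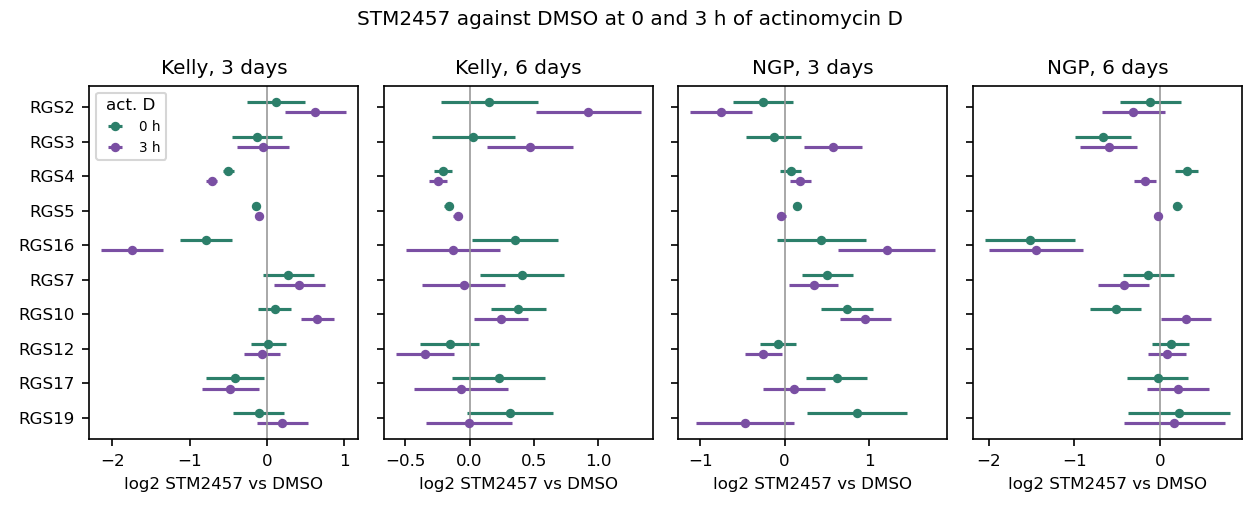
Log2 difference between STM2457 and DMSO for each member at 0 and 3 h of actinomycin D (horizontal axis, scale differing between panels). Points are edgeR estimates and bars are 1 SE; RGS4 lies to the left of 0 at both times in Kelly, and RGS16 has the widest range over the panels.

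The STM2457 effect at 0 h was compared directly between durations and lines. Between 6 and 3 days, 0 of 9 members passed in Kelly and 0 in NGP (edgeR), beside 0.788% and 2.8% of all genes; 1 and 2 members had an unadjusted p under 0.05, limma-voom gave 1 and 1, and DESeq2 0 and 1. The estimates of RGS16 were 1.14 ± 0.47 in Kelly and -1.95 ± 0.74 in NGP. Between the lines 0 of 9 passed at 3 days and 1 at 6 days, beside 0.161% and 1.75% of all genes. For that count of 0, DESeq2 and limma-voom also gave 0, and 1 member passed at an unadjusted p under 0.05. The member called at 6 days was RGS5, whose effect was higher in NGP by 0.38 ± 0.08 (edgeR adjusted p = 0.00075). RGS4, described with no test, differed by 0.57 ± 0.13 at 3 days and 0.53 ± 0.13 at 6 days in the same direction.

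By the pattern over groups, the genes most like RGS4 were CCNG2, YEATS2, DKK1, DOLPP1 and MRPL2. Likeness was the smaller of the 2 within-line Pearson correlations of mean log2 CPM over the 12 groups of a line, among 11763 genes, and it ran from 0.84 for CCNG2 to 0.83 for MRPL2. The 12 points of a line share their libraries and the order of actinomycin D times. With Spearman's correlation only DKK1 remained among the first 5. Of the members, RGS2 came closest (0.88 in Kelly and 0.65 in NGP), while RGS10 (-0.62 and -0.61) ran the other way in both lines. RGS5 did so in Kelly (-0.77), and its value in NGP was weak (-0.23, or -0.18 with Spearman's correlation).

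Genes that work with RGS proteins were looked at in lists: G alpha subunits (13), G beta and gamma subunits (15), other RGS genes (11), modulators such as GRKs and arrestins (15), effectors (15) and genes of the N-degron pathway (9). At 0 h, STM2457 and DMSO differed in 2 of 74 tested list genes in 3-day Kelly cells, 6 of 74 at 6 days, 3 of 68 in 3-day NGP cells and 5 of 68 at 6 days, shares of 2.7%, 8.11%, 4.41% and 7.35% beside the 1.69%, 3.97%, 3.7% and 7.99% of all genes given above. GNAS, the alpha subunit that stimulates adenylyl cyclase, had log2 differences of -0.46 ± 0.04 and -0.17 ± 0.04 in Kelly and 0.17 ± 0.04 in 6-day NGP cells, all called. It fell in Kelly and rose in 6-day NGP cells, and the effect differed between the lines at 6 days by 0.36 ± 0.06 (edgeR adjusted p = 5.9e-06). GRK5 and ARRB1, a receptor kinase and an arrestin, rose in 6-day Kelly cells (0.61 ± 0.15 and 0.49 ± 0.11). In NGP, GNG2, a gamma subunit, rose at 6 days (0.71 ± 0.14) and ADCY7, an adenylyl cyclase, fell (-0.68 ± 0.18). UBR4, a ligase of the N-degron pathway, was lower in NGP at both durations (-0.15 ± 0.04 and -0.19 ± 0.04). These named genes kept their direction with ERCC scaling, RLE scaling and library size only, but ERCC scaling changed the size of some. It moved the G alpha list median from -0.03 to 0.37 in 3-day Kelly cells and from 0.08 to -0.18 in 6-day Kelly cells. In 3-day NGP cells the N-degron list median moved from -0.02 to 0.08. The falls of GNAS in 3-day Kelly cells and of UBR4 in 3-day NGP cells were thus smaller under that scaling.

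At 3 h the counts were 7 of 74, 7 of 74, 4 of 68 and 2 of 68 list genes, beside the 5.83%, 5.2%, 7.94% and 8.64% of all genes. PLCB4, a phospholipase C, rose in 6-day Kelly cells (0.87 ± 0.16) and in 3-day NGP cells (0.58 ± 0.14), and UBR4 fell in 3-day Kelly cells (-0.39 ± 0.06; 0.03 with ERCC scaling). Over 6 h of actinomycin D in DMSO, 21 and 26 of 74 list genes changed in Kelly and 27 and 24 of 68 in NGP, shares of 28.4%, 35.1%, 39.7% and 35.3% beside the 30.1%, 26.5%, 37.3% and 36.7% of all genes. All called G beta and gamma genes rose relative to the typical gene (6 and 6 of 15 tested in Kelly, 7 and 6 of 14 in NGP; list medians 0.70, 0.68, 0.76 and 0.76 on the log2 scale beside 0, 0.05, -0.01 and -0.05 over all genes). Of all genes, 2422 and 2220 rose while 2618 and 2228 fell in Kelly, and 2779 and 2641 rose while 2694 and 2739 fell in NGP. With ERCC scaling that list's median was 0.26 in 3-day Kelly cells but turned to -0.59, -0.04 and -0.29 in the other groups, in the order above. Called G alpha genes went both ways, with GNAZ lower in all 4 (-1.25 ± 0.19 and -0.76 ± 0.18 in Kelly, -1.16 ± 0.22 and -1.17 ± 0.22 in NGP) and GNAS higher in all 4 (0.80 ± 0.04, 1.198 ± 0.04, 0.85 ± 0.04 and 0.90 ± 0.04); with ERCC scaling GNAZ stayed lower in all 4 and GNAS was 0.36, -0.08, 0.05 and -0.15. ADO, the cysteine oxidase of the N-degron pathway, fell in Kelly at both durations (-0.90 ± 0.28 and -0.76 ± 0.28) and in 3-day NGP cells (-0.77 ± 0.23).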

How the data were processed

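Poly(A) RNA of 48 libraries of the Kelly and NGP neuroblastoma cell lines was sequenced. The authors deposited whole-number counts of fragments per gene, one file a library, made by featureCounts (Subread 1.5.3) per the file headers, over 19923 protein-coding gene names of GENCODE release 33 and 92 ERCC spike-in sequences. Reads had passed FastQC 0.11.5, Trimmomatic 0.36 and HISAT2 2.1.0 on GRCh38, per the submitters' processing notes. Libraries held 11139550 to 21942238 fragments in genes, ERCC fragments came to 0.265 to 0.671% and mitochondrial genes to 3.22 to 7.38%. For levels between genes, TPM was computed here from the exon lengths in the files, which take in all annotated exons of a gene.

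Each line was fitted by itself over its 12 groups (edgeR 4.0.16 in R 4.3.3, quasi-likelihood test, TMM scaling, dispersion trend, filter of 10 counts for a gene in the smallest group and 15 in all), with 16759 genes in Kelly and 14661 in NGP. Both lines together (17343 genes) served comparisons between lines. SE was taken as the absolute log2 change over the root of the F statistic, and p-values were adjusted by Benjamini and Hochberg over all genes, with a threshold of 0.05. The computation was checked on simulated counts drawn with the fit's own dispersion trend. That check says nothing of how well the trend holds for these libraries. Alternatives were RLE scaling, library size only, ERCC scaling, no filter, a replicate block, limma-voom (limma 3.58.1), DESeq2 1.42.0 and leaving out each library. Same-numbered replicates did not deviate together, so no block is in the main analysis.

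The members and gene lists were chosen with earlier results of these data known. All 10 members and the 5 genes most like RGS4 are named. The list genes named were taken from the called genes with the largest change, up to 2 a list and comparison. Their values in other comparisons are given as well. Not every such gene is named, and an unnamed one can have changed more.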

Additional observations from a re-analysis of the deposited data

Results flagged for a closer look

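The effect of STM2457 on RGS5 before actinomycin D differed between the lines at 6 days. It was -0.16 ± 0.03 (SE, log2) in Kelly and 0.20 ± 0.05 in NGP, and the test of the difference itself gave 0.38 ± 0.08 (edgeR quasi-likelihood test, adjusted p = 0.00075). Both STM2457 libraries lay below both DMSO libraries in Kelly and above them in NGP. The difference was 0.57 under ERCC scaling and kept its call in edgeR without any 1 of the 8 libraries (0.31 to 0.42) and with DESeq2 (adjusted p = 0.0063), but not with limma-voom (0.36, adjusted p = 0.86). Of all genes tested, 1.75% passed in this comparison. At 3 days the difference was 0.28 ± 0.08 and did not pass (edgeR adjusted p = 0.13); with ERCC scaling it was -0.018. The cause was not tested.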

How the results depend on the processing

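With ERCC scaling, members called rose from 3 to 5 (STM2457 against DMSO at 3 h, Kelly 3 days), from 4 to 9 (6 h against 0 h in DMSO, Kelly 6 days and NGP 6 days, and in STM2457, Kelly 6 days) and from 0 to 1 (duration difference in Kelly; STM2457 at 0 h, NGP 3 days). They fell from 1 to 0 for the 3 h effect in NGP at 3 days. Of 300 log2 values of the members, 66 had the opposite sign with ERCC scaling and at most 11 with each other setting that kept all libraries. Tested values among the 66 that passed the threshold under one scaling or the other were those of RGS5 in Kelly at 3 days (0.26 for STM2457 at 0 h, 0.32 at 3 h, -0.16 over 6 h in STM2457), Kelly DMSO at 6 days (-0.55) and NGP STM2457 at 3 days (-0.027), of RGS10 in Kelly (-0.13 in STM2457 at 3 days, -1.01 in DMSO at 6 days), of RGS12 in Kelly STM2457 at 3 days (-0.68) and NGP DMSO at 6 days (-1.02), and of RGS7 in NGP DMSO at 3 days (-0.71). The RGS4 decay difference in Kelly at 6 days, which was not tested, turned to 0.32. The other 55 passed under neither or were not tested, among them RGS4 over 6 h in NGP DMSO at 6 days (-0.76) and RGS10 over 6 h in DMSO (-0.18 in Kelly and -0.35 in NGP, at 3 days). That scaling alone moved the median of all genes by 0.38 for STM2457 at 0 h in Kelly at 3 days and by -0.34 to -1.18 over 6 h; the cause was not tested.

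With library size only, counts fell from 1 to 0 for STM2457 at 0 h in Kelly at 3 days. With limma-voom they went from 3 to 1 at 3 h in Kelly at 3 days, from 1 to 0 for STM2457 at 0 h in Kelly at 6 days and at 3 h in NGP at 3 days, from 0 to 1 for the duration difference in both lines, and from 1 to 3 for STM2457 at 0 h in NGP at 6 days. With DESeq2 they went from 1 to 0 for STM2457 at 0 h in Kelly at 3 and 6 days, from 0 to 1 for the 3 h effect in NGP at 6 days and the duration difference in NGP, and from 1 to 2 for STM2457 at 0 h in NGP at 6 days. RLE scaling gave 2 rather than 1 at 3 h in Kelly at 6 days. No filter gave 1 rather than 0 for STM2457 at 0 h in NGP at 3 days. It also gave 1 rather than 0 for the difference of the STM2457 effect between the lines at 3 days.

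Replicate numbers did not pair the libraries (correlation of deviations between -0.038 and 0.026 over the 66 group pairs in Kelly and -0.045 and 0.030 in NGP). With the replicate number as a block, RGS5 passed at 3 h in Kelly at 6 days (-0.09, edgeR adjusted p = 0.035, a count of 2) and at 0 h in NGP at 3 days (0.14, edgeR adjusted p = 0.046, a count of 1).

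Over 64 refits that each left out 1 library, with the dispersion trend kept, counts ran from 0 to 1 for STM2457 at 0 h in Kelly at both durations and NGP at 6 days, for the 3 h effect in Kelly at 6 days and the duration difference in NGP. They stood at 0 for the 3 h effect in NGP at 3 days and at 2 for the 3 h effect in Kelly at 3 days. The lone library left in a group was assumed to vary like the other groups. Ordering the means over both durations by CPM with no length moved 16 of the 20 level ranks. Low counts limit RGS16 at 6 h most.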
